A study of Homo sapiens with 6 samples.

Results

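The genes described here build and control the mitotic spindle, the kinetochores and the final separation of daughter cells. They were chosen as a fixed list of 50 genes, and every probe set that the platform annotation assigns to 1 of them was taken, which gave 78 of the 22277 probe sets on the array. NUF2 is not analysed here, so 49 genes remained, and all 49 passed the filter on low signals among 7936 genes tested. Expression was measured in NCI-H929, an established human multiple myeloma cell line, on 6 oligonucleotide arrays. Cells were electroporated with small interfering RNA (siRNA) against RRM1 (siRRM1), against RRM2 (siRRM2) or with a non-targeting sequence (scramble), and RNA was taken 24 h later from 2 samples of each group. RRM1 and RRM2 encode the large and small subunits of ribonucleotide reductase, which makes the deoxyribonucleotides for DNA synthesis. All 3 groups went through electroporation, and untreated cells are not part of the comparison. The labels do not say whether the samples of a group came from separate cultures, so p-values measure only the spread between these samples, which may be technical.

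In mitosis, kinetochores assembled on centromeres attach chromosomes to spindle microtubules, and a checkpoint holds the anaphase-promoting complex in check until all chromosomes are attached. Most of these genes are transcribed late in the cell cycle, in G2 and M phase, under MuvB complexes that work with the factors B-MYB and FOXM1. The same promoters can be held silent by the DREAM complex, which joins MuvB to a pocket protein and E2F4 and forms when cyclin-dependent kinases are inhibited, for instance by p21, the product of CDKN1A. MuvB contacts DNA at a short element known as the cell cycle genes homology region, with the letters TTTGAA or TTTAAA, and CCAAT boxes often lie nearby. In myeloma, proliferation signatures made of such genes mark fast-growing disease.

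The promoters of PSRC1, CDC20, CENPE and DEPDC1 are shown because these genes had the smallest p in siRRM1 against scramble among those with a RefSeq entry. Each run is the 250 bases before the annotated transcript start in GRCh38.p14, written 5′ to 3′ on the gene's strand. Capitals mark TTTGAA with its reverse complement TTCAAA, then TTTAAA, which is its own reverse complement, and finally CCAAT.
PSRC1 (chr1:109283146-109283395, minus strand): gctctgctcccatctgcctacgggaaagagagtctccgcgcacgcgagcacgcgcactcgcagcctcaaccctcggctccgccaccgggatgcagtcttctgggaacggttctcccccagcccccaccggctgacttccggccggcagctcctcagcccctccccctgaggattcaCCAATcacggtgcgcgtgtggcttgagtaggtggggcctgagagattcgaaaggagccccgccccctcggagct
CDC20 (chr1:43358731-43358980, plus strand): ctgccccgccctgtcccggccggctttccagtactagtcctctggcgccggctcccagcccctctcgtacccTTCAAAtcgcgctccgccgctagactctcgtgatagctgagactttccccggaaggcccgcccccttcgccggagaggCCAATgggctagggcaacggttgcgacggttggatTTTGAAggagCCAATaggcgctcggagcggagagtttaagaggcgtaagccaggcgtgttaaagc
CENPE (chr4:103198344-103198593, minus strand): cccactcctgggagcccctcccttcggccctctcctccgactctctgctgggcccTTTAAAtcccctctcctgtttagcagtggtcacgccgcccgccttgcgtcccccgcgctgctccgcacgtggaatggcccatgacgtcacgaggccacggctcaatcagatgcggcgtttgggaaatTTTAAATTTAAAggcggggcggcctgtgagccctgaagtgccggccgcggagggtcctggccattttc
DEPDC1 (chr1:68497083-68497332, minus strand): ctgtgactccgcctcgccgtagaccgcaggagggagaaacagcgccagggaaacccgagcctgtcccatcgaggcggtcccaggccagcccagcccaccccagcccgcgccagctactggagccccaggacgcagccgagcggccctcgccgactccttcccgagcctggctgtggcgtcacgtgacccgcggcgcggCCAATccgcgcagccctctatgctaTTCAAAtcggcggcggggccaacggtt
In CDC20, TTTGAA began 65 bases before the start and CCAAT 55 bases before it, with TTCAAA and a further CCAAT at 178 and 100 bases. CENPE held TTTAAA 3 times, at 195, 68 and 62 bases, and the last pair adjoin and are printed as 1 run of capitals. DEPDC1 held TTCAAA at 27 bases and CCAAT at 52. Of the letters searched, PSRC1 held only CCAAT, at 74 bases, which says no more than that the other letters are not in this window. Other spellings of the element were not searched.

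These letters were common across the whole set. Of the 49 genes, 41 had RefSeq windows running from 250 bases before to 50 after the start. TTTGAA was present on either strand in 30 of 41 genes (73.2%), against 13.5% of the 6554 tested genes with a window and 18.2% of all 27305 genes with one. TTTAAA was present in 13 of 41 (31.7%), against 10.7% of the tested genes and 14.5% of all genes. CCAAT was found in 34 of 41 (82.9%), against 44.7% of the tested genes and 39.7% of all genes. The genes that fell in siRRM1 and those that did not pass the test had like shares: TTTGAA was in 10 of 13 (76.9%) and in 20 of 28 (71.4%), and CCAAT in 11 of 13 (84.6%) and in 23 of 28 (82.1%). These motif counts are a description of the letters and were given no test.

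The deposited values are log2 signals already on a common scale, with array medians from 6.11 to 6.16, and the number of arrays limits the precision. Each siRNA lowered its own target, RRM1 to 22.4% and 11.7% of the scramble mean on the siRRM1 arrays and RRM2 to 21.2% and 39.6% on the siRRM2 arrays. The fall of RRM1 had an adjusted p of 0.00154 and that of RRM2 of 0.0214, the second of which was lost without either scramble array (adjusted p up to 0.0739). CDKN1A, which encodes the kinase inhibitor p21, reached 604% and 838% of the scramble mean in siRRM1 and 430% and 420.0% in siRRM2. Of 14 plasma cell markers fixed for the check of the cell type, 13 were measured and 11 lay above the filter, among them SDC1, CD38, TNFRSF17, XBP1, PRDM1 and IRF4, and CD27 and CD79A lay below it. Of the markers of other cells, 2 of 7 T and NK cell genes, 1 of 6 myeloid, 2 of 2 erythroid, 3 of 8 stromal and endothelial and 2 of 5 epithelial genes lay above the filter. Those above it were CD3E and NCAM1, CSF1R, HBB and ALAS2, COL1A1, VIM and PECAM1, and KRT8 and KRT18, in that order of cell types. Among those below it were the T cell markers CD3D and CD3G and the myeloid markers CD14 and MPO. The 11 plasma cell markers had a median log2 difference from scramble of -0.27 in siRRM1 and -0.03 in siRRM2. Both siRRM1 arrays lay below both scramble arrays for 10 of them and above for 1, where 30.9% and 28.4% of all genes did so. In siRRM2, 2 lay below and 3 above without overlap, where 27.7% and 27.1% of all genes did so. Against siRRM2 the siRRM1 arrays were also lower without overlap for 10 markers and higher for 0, with a median of -0.24. Over all genes 21.8% were lower and 18.9% higher in this way. The part of this shift of the plasma cell markers in the results was not tested. Of these markers FGFR3 (-0.54) and IRF4 (-0.63) fell in siRRM1 (0 to 4 markers called when each array was left out) and 0 passed in siRRM2, and PECAM1, an endothelial marker, rose in both (0.80 in siRRM1, 1.09 in siRRM2). CSF1R, the myeloid marker above the filter, had log2 signals of 6.73 and 7.68 in siRRM1 and 6.08 and 6.50 in siRRM2, against 5.56 and 5.84 in scramble, and its part in the results below was not tested. As a sign of RNA quality, the difference between the 3′ and 5′ control probe sets of ACTB on the log2 scale was 0.03 and 0.33 in siRRM1 and 0.05 and 0.05 in siRRM2, against 0.34 and 0.15 in scramble, and its part in the results was not tested.

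The comparison of each knockdown with scramble asked which of these genes change when a subunit is depleted. In siRRM1, 13 of the 49 genes fell and 0 rose (26.5% fell, where 7.33% of all 7936 genes were called lower). In siRRM2, 4 fell and 0 rose, where 0.517% of all genes were called lower, and these 4, CDC20, CENPE, DEPDC1 and PSRC1, are all among the 13. A gene was called where its limma p, adjusted by the Benjamini-Hochberg method over all genes tested, was under 0.05. Over all genes 15.5% were called in either direction in siRRM1 and 2.52% in siRRM2, and 8.22% and 2% were called higher. At an unadjusted p under 0.05, 23 genes of the set passed in siRRM1 and 14 in siRRM2, all lower. Of all 7936 genes, 1349 and 698 passed as lower, and 32.6% and 20.4% passed in either direction. The median log2 difference was -0.23 in siRRM1 and -0.22 in siRRM2, where the medians of all genes were -0.01 and -0.00. The log2 difference lay below 0 for 38 of 49 genes in siRRM1 and 43 in siRRM2, against 51.7% and 50.7% of all genes. Both siRRM1 arrays lay below both scramble arrays for 27 genes and above them for 4, where 30.9% and 28.4% of all genes did so. In siRRM2 the groups did not overlap for 27 lower genes and 1 higher, where 27.7% and 27.1% of all genes did so. Both comparisons share the scramble arrays, so they are not independent of each other. RNA came from whole cultures, in which fewer cells in G2 and M phase and less of each transcript per cell cannot be told apart.

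**Figure D1:**
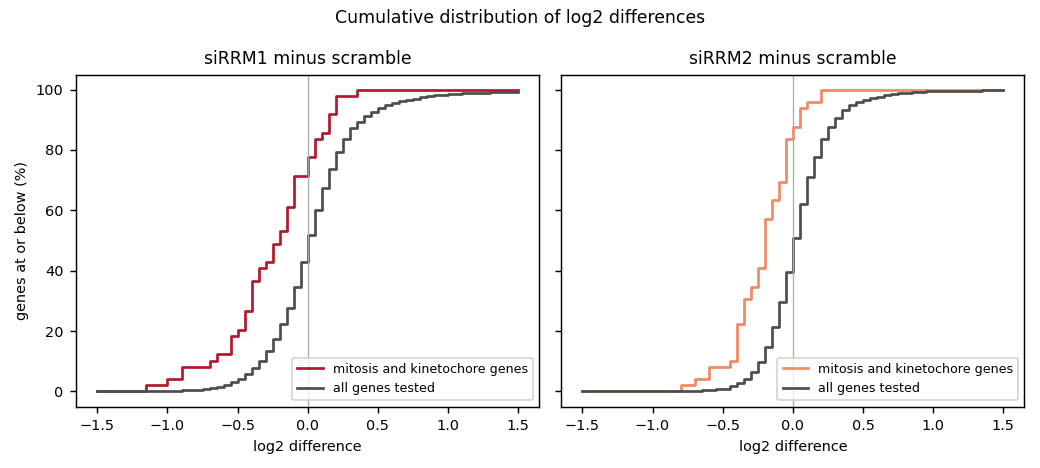
Cumulative share of genes (y axis, percent) at or below a log2 difference from scramble (x axis) for the 49 mitosis and kinetochore genes and for all 7936 genes tested, in siRRM1 (left) and siRRM2 (right). The coloured curves lie left of the grey ones: the median gene of the set is at -0.23 in siRRM1 and -0.22 in siRRM2, against -0.01 and -0.00 for all genes.

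With 2 arrays a group the counts rested on single arrays. The counts given here are of genes called in each fit. These genes can lie outside the main calls, as CDCA8 did in siRRM1 without scramble replicate 1. The 13 falls in siRRM1 became 3 without siRRM1 replicate 2, 8 without siRRM1 replicate 1, and 6 without either scramble array. The 4 falls in siRRM2 became 0 without siRRM2 replicate 1 or either scramble array, and 1 without siRRM2 replicate 2 or either siRRM1 array. The median difference kept its sign: in siRRM1 it was -0.18 and -0.31 without siRRM1 replicate 1 and replicate 2. In siRRM2 it was -0.09 without siRRM2 replicate 1 and -0.36 without siRRM2 replicate 2. Some calls also ended under other settings. In siRRM1, PLK1, CDCA3 and PRC1 were not called without the filter on low signals, PLK1 with only the 4 arrays compared, PRC1 after quantile normalization and BUB1 when probe sets were averaged. In siRRM2, DEPDC1 and PSRC1 were not called without the filter, CENPE, DEPDC1 and PSRC1 with only the 4 arrays compared, and PSRC1 with a variance trend.

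**Figure D2:**
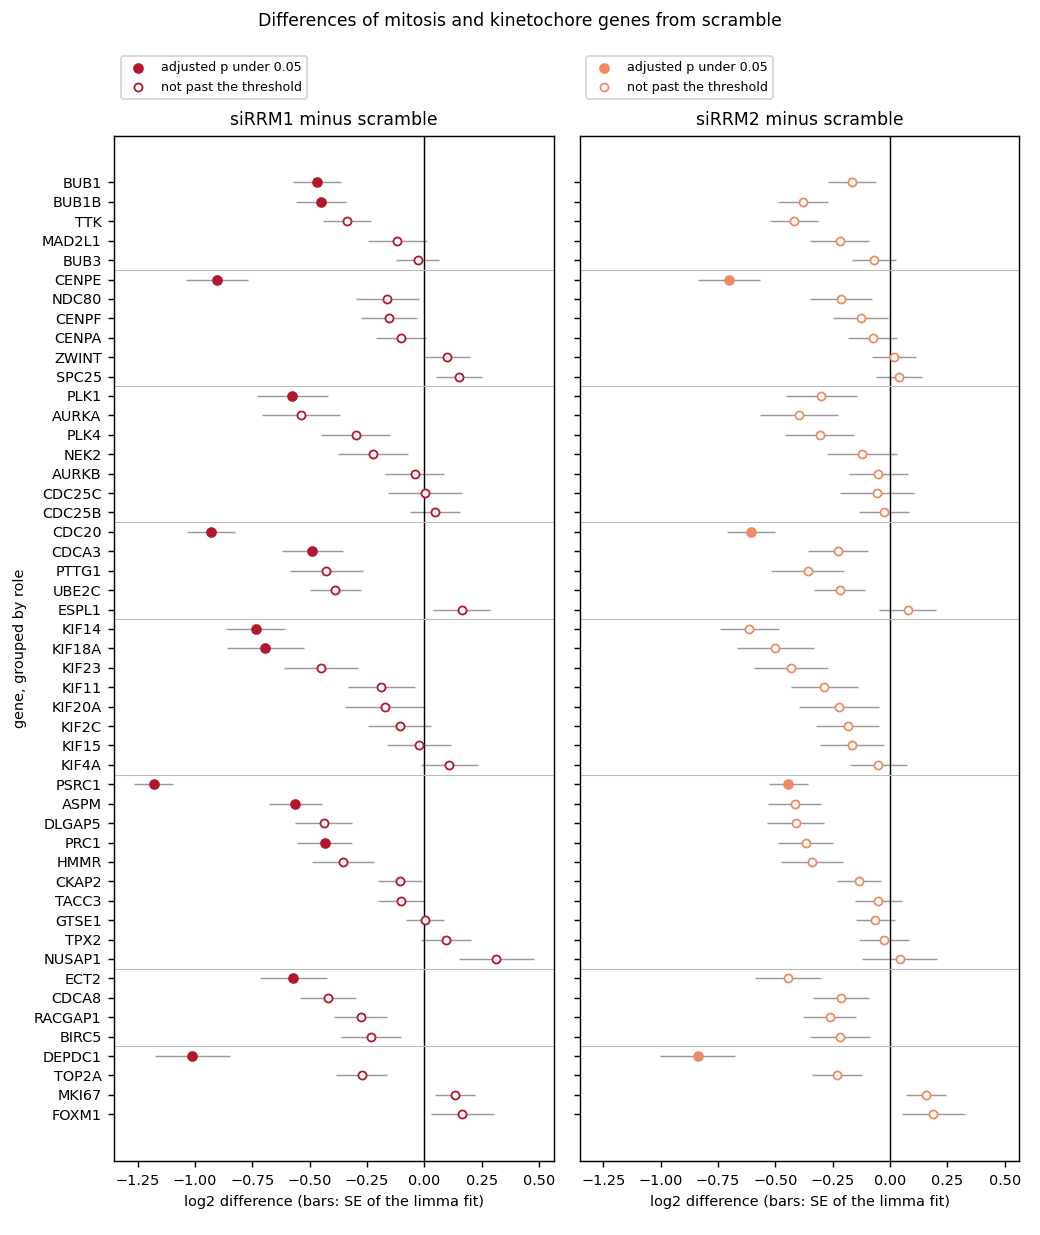
Log2 difference from scramble (x axis) of each of the 49 genes (rows, grouped by role) in siRRM1 (left) and siRRM2 (right), with the standard error of the limma fit as bars and filled points for genes past the threshold. There are 13 filled points on the left and 4 on the right, all below 0, and PSRC1 at -1.18 in siRRM1 is the lowest.

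The anaphase-promoting complex is the ubiquitin ligase that starts anaphase by marking securin and cyclin B for destruction. CDC20, its activator in early mitosis, had log2 signals of 10.02 and 9.87 in siRRM1 and 10.19 and 10.35 in siRRM2, against 10.83 and 10.93 in scramble. All 4 knockdown arrays lay below both scramble arrays. CDC20 fell to 52.4% of scramble in siRRM1 (log2 -0.93, SE 0.10, adjusted p = 0.00237) and to 65.7% in siRRM2 (log2 -0.61, SE 0.10, adjusted p = 0.0321). CDCA3, a gene linked to mitotic entry, had 8.15 and 7.86 in siRRM1, against 8.52 and 8.47 in scramble, and fell (log2 -0.49, SE 0.13, adjusted p = 0.0450), while its siRRM2 value of -0.23 did not pass (adjusted p = 0.377). UBE2C, the ubiquitin-conjugating enzyme of the complex, had a log2 difference of -0.39 in siRRM1 (adjusted p = 0.0520) and -0.22 in siRRM2. PTTG1, which encodes securin, had -0.43 in siRRM1 and -0.36 in siRRM2, neither past the threshold, and it has near-identical copies that its probe set may not separate. ESPL1, the protease separase that securin holds inactive, had differences of 0.16 and 0.08. The CDC20 call in siRRM1 held without any 1 array (adjusted p at most 0.0218), and that in siRRM2 was lost without either scramble array or either siRRM2 array. The CDCA3 call was lost without siRRM1 replicate 2 or either scramble array.

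The kinetochore genes differed among themselves. CENPE, a kinesin that carries chromosomes along microtubules to the spindle equator, had log2 signals of 7.96 and 8.02 in siRRM1 and 7.99 and 8.40 in siRRM2, against 8.87 and 8.92 in scramble. Again no knockdown array reached a scramble array. CENPE fell to 53.4% of scramble in siRRM1 (log2 -0.90, SE 0.13, adjusted p = 0.00670) and to 61.4% in siRRM2 (log2 -0.70, SE 0.13, adjusted p = 0.0435). The other 5 kinetochore genes tested did not pass in either knockdown. NDC80 and SPC25, subunits of the complex that grips microtubule ends, had log2 differences of -0.16 and 0.15 in siRRM1 and -0.21 and 0.04 in siRRM2. CENPA, the histone H3 variant of centromeres, had -0.10 and -0.08 for siRRM1 and siRRM2, the large kinetochore protein CENPF -0.15 and -0.13, and ZWINT, which helps recruit checkpoint proteins, 0.10 and 0.02. The 95% interval for CENPA in siRRM1 ran from -0.35 to 0.15, which does not reach the size of the CENPE change. The suffix of the CENPA probe set marks probes that may also match other transcripts, which limits this reading. The CENPE call in siRRM1 held without any 1 array (adjusted p at most 0.0435), and that in siRRM2 was lost without siRRM2 replicate 1, either siRRM1 array or either scramble array.

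The spindle checkpoint delays anaphase until kinetochores are attached. BUB1, a checkpoint kinase at kinetochores, had log2 signals of 9.93 and 9.84 in siRRM1 and 10.07 and 10.30 in siRRM2, against 10.34 and 10.37 in scramble. It fell in siRRM1 (log2 -0.47, SE 0.10, adjusted p = 0.0245) and had a difference of -0.17 in siRRM2 (adjusted p = 0.411). BUB1B, whose product BUBR1 binds and inhibits the CDC20-loaded complex, had 10.33 and 10.34 in siRRM1 and 10.27 and 10.55 in siRRM2, against 10.76 and 10.81 in scramble. It fell in siRRM1 (log2 -0.45, SE 0.11, adjusted p = 0.0321) and had -0.38 in siRRM2 (adjusted p = 0.115). TTK, the kinase MPS1 that starts checkpoint signalling, had -0.34 in siRRM1 and -0.42 in siRRM2 (adjusted p = 0.0694 and 0.0854). MAD2L1, the CDC20-binding MAD2, had -0.12 and -0.22, and BUB3, the partner of BUB1 and BUBR1, -0.03 and -0.07, in siRRM1 and siRRM2. For the BUB3 probe set the siRRM1 interval of -0.25 to 0.19 lies close around 0. Both falls in siRRM1 were lost without siRRM1 replicate 2 or either scramble array, and that of BUB1B also without siRRM1 replicate 1.

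Among the mitotic kinases and the CDC25 phosphatases, PLK1 alone was called. PLK1, which drives centrosome maturation, chromosome attachment and mitotic exit, had log2 signals of 6.73 and 7.06 in siRRM1 and 7.07 and 7.27 in siRRM2, against 7.30 and 7.63 in scramble. It fell in siRRM1 (log2 -0.58, SE 0.15, adjusted p = 0.0439), a call that was lost without scramble replicate 2 or any 1 of the knockdown arrays. AURKA, the Aurora kinase of spindle poles, had 10.55 and 10.77 in siRRM1, against 11.03 and 11.37 in scramble, which gave -0.54 with an SE of 0.17 and missed the threshold (adjusted p = 0.0727). AURKB, the Aurora kinase of the chromosomal passenger complex, had log2 differences of -0.04 in siRRM1 and -0.05 in siRRM2. PLK4, which licenses centriole duplication, had -0.30 and -0.31, and NEK2, a kinase of centrosome separation, -0.23 and -0.12, in siRRM1 and siRRM2. CDC25B and CDC25C, which activate cyclin-dependent kinase 1, had 0.05 and 0.00 in siRRM1 and -0.03 and -0.06 in siRRM2, with arrays of the groups overlapping in each case.

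Of 8 mitotic kinesins, the motors that slide and shorten spindle microtubules, KIF14 and KIF18A fell in siRRM1 and 0 passed in siRRM2. KIF14, a kinesin of the midbody and cytokinesis, had log2 signals of 8.24 and 8.17 in siRRM1 and 8.18 and 8.49 in siRRM2, against 9.06 and 8.83 in scramble. It fell in siRRM1 (log2 -0.74, SE 0.13, adjusted p = 0.0117) and just missed the threshold in siRRM2 (log2 -0.61, SE 0.13, adjusted p = 0.0560). KIF18A, which dampens chromosome movements at the metaphase plate, had 7.67 and 7.29 in siRRM1 and 7.46 and 7.89 in siRRM2, against 8.15 and 8.20 in scramble. It fell in siRRM1 (log2 -0.69, SE 0.17, adjusted p = 0.0320) and had -0.50 in siRRM2 (adjusted p = 0.153). KIF23, a subunit of the centralspindlin complex of the midzone, had differences of -0.45 and -0.43 in siRRM1 and siRRM2, neither past the threshold. KIF11, the motor Eg5 that pushes spindle poles apart, had -0.19 and -0.29, and KIF20A, a midzone kinesin, -0.17 and -0.22. The microtubule depolymerase KIF2C, the spindle motor KIF15 and the chromokinesin KIF4A ranged from -0.11 to 0.11 in siRRM1. The calls of KIF14 and KIF18A were lost without siRRM1 replicate 2 or scramble replicate 1, and that of KIF18A also without scramble replicate 2.

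Among 10 microtubule-associated proteins of the spindle, PSRC1 showed the largest change of the whole set in siRRM1. In siRRM2, DEPDC1, CENPE, KIF14, CDC20, KIF18A and, marginally, ECT2 lay further from scramble than PSRC1. PSRC1, which regulates microtubule dynamics at the spindle and is also known as DDA3, had log2 signals of 5.37 and 5.34 in siRRM1 and 6.08 and 6.10 in siRRM2, against 6.50 and 6.57 in scramble. The 3 groups did not overlap, and the siRRM1 arrays lay under the filter level of 5.44. PSRC1 fell to 44.1% of scramble in siRRM1 (log2 -1.18, SE 0.08, adjusted p = 5.04e-04) and to 73.5% in siRRM2 (log2 -0.44, SE 0.08, adjusted p = 0.0423). ASPM, which organises spindle poles, had 9.41 and 9.52 in siRRM1 and 9.49 and 9.74 in siRRM2, against 10.10 and 9.96 in scramble, and fell in siRRM1 (log2 -0.56, SE 0.11, adjusted p = 0.0186). PRC1, which bundles antiparallel microtubules of the midzone, had 9.65 and 9.72 in siRRM1 and 9.61 and 9.90 in siRRM2, against 10.04 and 10.21 in scramble, and fell in siRRM1 (log2 -0.43, SE 0.12, adjusted p = 0.0485). In siRRM2, ASPM had -0.42 (adjusted p = 0.108) and PRC1 -0.37 (adjusted p = 0.149). DLGAP5, the spindle stabiliser HURP, had -0.44 in siRRM1 (adjusted p = 0.0523) and -0.41 in siRRM2, and HMMR, a spindle-pole protein, -0.36 and -0.34. Other members of this group lay near scramble by their brightest probe set: CKAP2, TACC3, GTSE1 and TPX2, the activator of Aurora A, ranged from -0.11 to 0.09 in siRRM1. For GTSE1 this rests on 1 of 4 probe sets, which ranged from -0.35 to 0.00 in siRRM1 and from -0.21 to 0.03 in siRRM2, with 0 called. NUSAP1, which binds microtubules near chromosomes, had the highest value of the set in siRRM1, 0.31, with 11.33 and 11.63, against 11.03 and 11.30 in scramble, and did not pass (adjusted p = 0.223). The PSRC1 call in siRRM1 held without any 1 array (adjusted p at most 0.00752), and the one in siRRM2 was lost without any 1 of the 6 arrays. Those of ASPM and PRC1 in siRRM1 were lost without either siRRM1 array or scramble replicate 1, and that of PRC1 also without scramble replicate 2.

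Among 4 genes of the chromosomal passengers and cytokinesis, ECT2, the exchange factor that activates RhoA for the contractile ring, had log2 signals of 8.87 and 8.93 in siRRM1 and 8.80 and 9.26 in siRRM2, against 9.44 and 9.51 in scramble. It fell in siRRM1 (log2 -0.57, SE 0.15, adjusted p = 0.0380) and had -0.44 in siRRM2 (adjusted p = 0.149). The call was lost without either siRRM1 array or either scramble array. CDCA8, which encodes borealin, had -0.42 in siRRM1 (adjusted p = 0.0572) and -0.22 in siRRM2. BIRC5, which encodes survivin, had -0.23 and -0.22, and RACGAP1, the partner of KIF23 in centralspindlin, -0.28 and -0.26.

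The last group holds genes of chromosome structure and transcription. DEPDC1 had log2 signals of 8.94 and 8.66 in siRRM1 and 8.75 and 9.20 in siRRM2, against 9.89 and 9.74 in scramble, with all knockdown arrays below the scramble arrays. It fell to 49.6% of scramble in siRRM1 (log2 -1.01, SE 0.16, adjusted p = 0.00877) and to 55.9% in siRRM2 (log2 -0.84, SE 0.16, adjusted p = 0.0452). The siRRM1 call was lost without siRRM1 replicate 2 and the siRRM2 call without any 1 array, and the suffix of its probe set marks probes that may also match other transcripts. TOP2A, the topoisomerase that untangles sister chromatids, had -0.27 and -0.23 in siRRM1 and siRRM2. MKI67, the proliferation marker that coats mitotic chromosomes, had 9.69 and 9.64 in siRRM1 and 9.67 and 9.71 in siRRM2, against 9.58 and 9.48 in scramble. All 4 knockdown arrays lay above both scramble arrays, and the differences of 0.13 and 0.16 did not pass (adjusted p = 0.342 and 0.363). FOXM1, the transcription factor of G2 and M phase genes, had 0.16 and 0.19, with groups overlapping. Their 95% intervals in siRRM1, -0.07 to 0.34 for MKI67 and -0.16 to 0.49 for FOXM1, leave out a fall of the size seen for CDC20. For FOXM1 this holds for the signal of its probe set, which has the same suffix as that of DEPDC1.

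**Figure D3:**
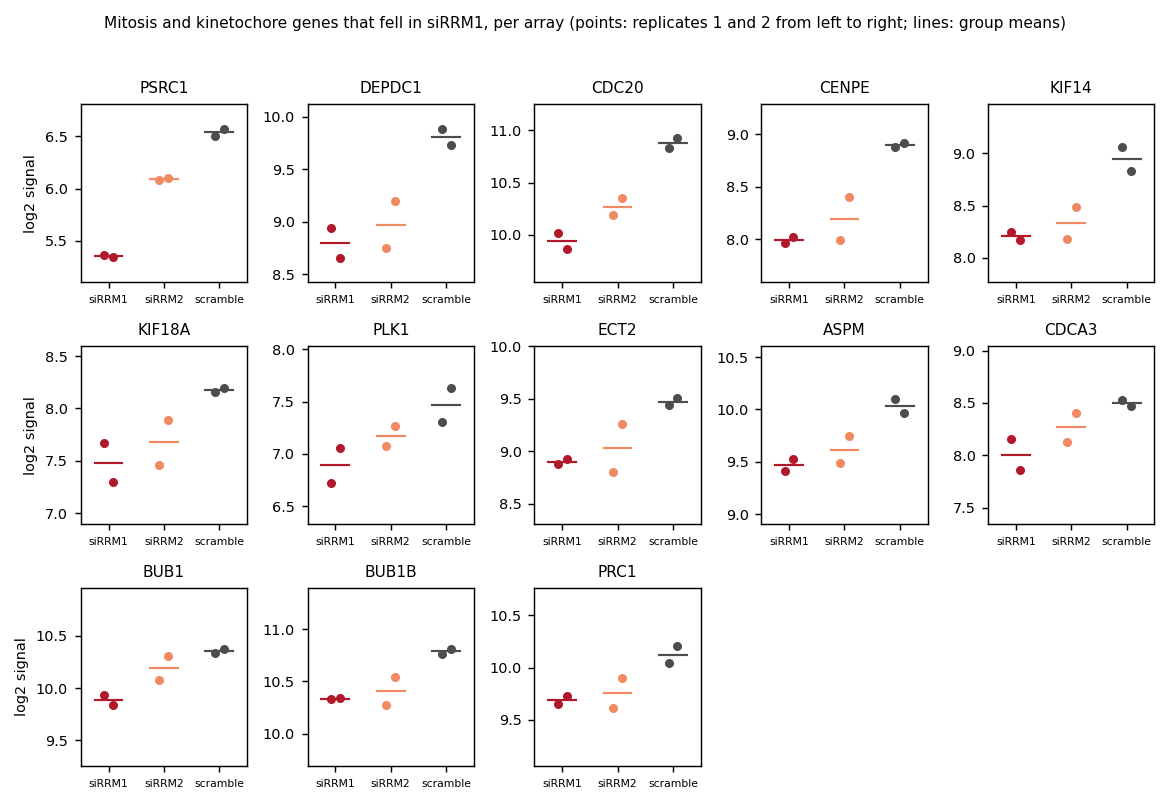
Log2 signal (y axis, each panel spanning the same number of log2 units) of the 13 genes that fell in siRRM1, by group (x axis), with points for replicates 1 and 2 and lines for group means. In every panel both siRRM1 points lie below both scramble points. The siRRM2 points spread widely for several genes, among them ECT2, at 8.80 and 9.26, and DEPDC1, at 8.75 and 9.20. KIF18A, at 7.46 and 7.89, and CENPE, at 7.99 and 8.40, also spread widely, while PSRC1, at 6.08 and 6.10, does not.

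**Figure D4:**
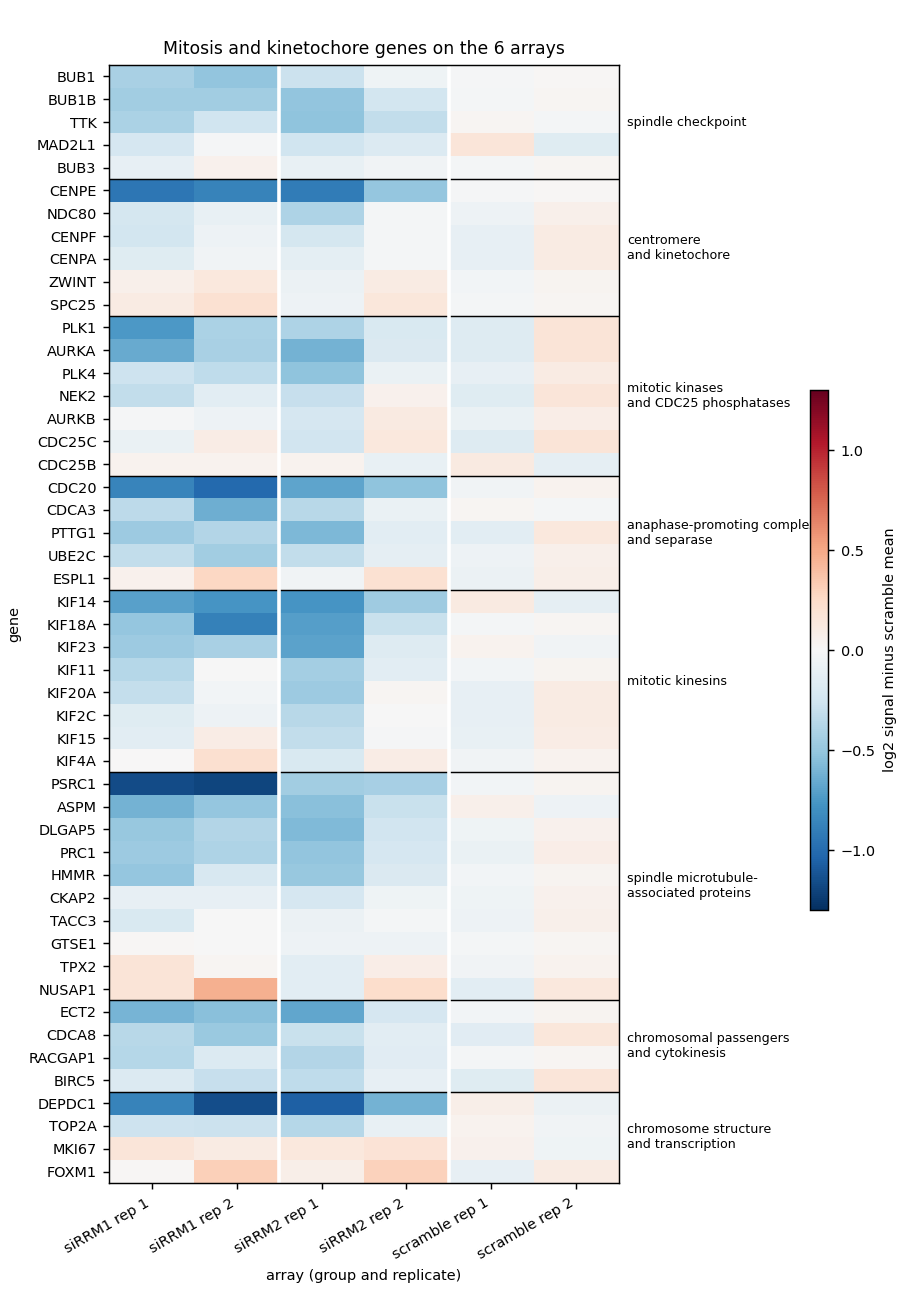
Log2 signal minus the scramble mean (colour) for the 49 genes (rows, by role) on the 6 arrays (columns). The falls in PSRC1, DEPDC1, CDC20 and CENPE show in all 4 knockdown columns, and for most genes the siRRM2 column of replicate 1 is bluer than that of replicate 2.

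The genes also varied together between arrays of the same group. The mean over the 49 genes, relative to the scramble mean, was -0.31 and -0.25 on the siRRM1 arrays and -0.36 and -0.10 on the siRRM2 arrays, against -0.05 and 0.05 on the scramble arrays. All 4 knockdown arrays lay below both scramble arrays, but the 2 siRRM2 arrays lay further apart than siRRM2 replicate 2 lay from scramble. In siRRM2, replicate 2 was above replicate 1 for 48 of 49 genes, with a median difference of 0.27, where it was above for 56.3% of all genes with a median of 0.02. In scramble, replicate 2 was above replicate 1 for 39 genes (median 0.09) and in siRRM1 for 31 (median 0.08). RRM2 itself was at 21.2% of the scramble mean on siRRM2 replicate 1 and at 39.6% on replicate 2, while CDKN1A was at 430% and 420.0%. The part of these values in the spread was not tested. Means over all genes tested stayed between -0.00 and 0.03 of scramble on all 6 arrays.

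**Figure D5:**
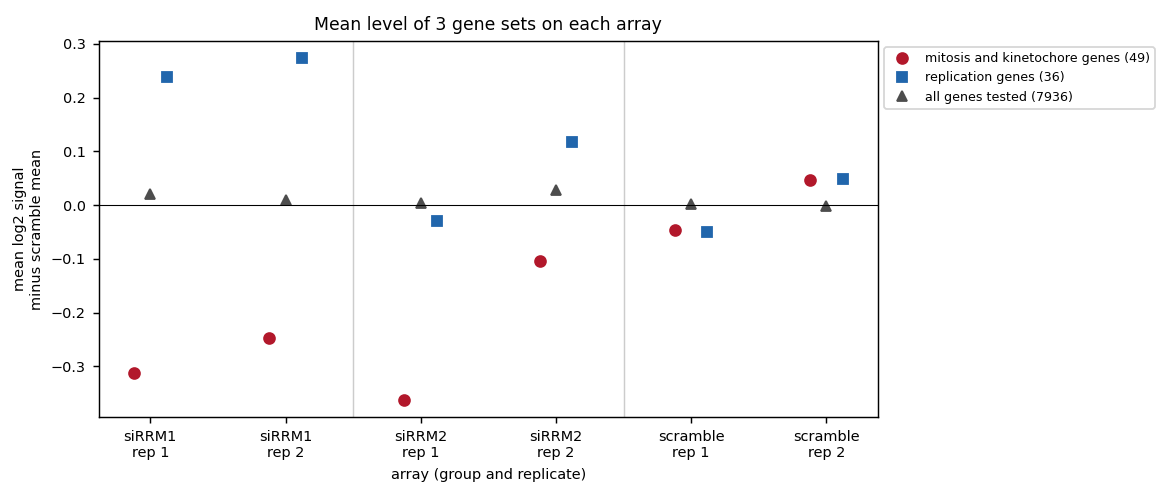
Mean log2 signal minus the scramble mean (y axis) on each array (x axis) for the 49 mitosis and kinetochore genes, 36 replication genes and all 7936 genes tested. The mitosis genes lie at -0.31, -0.25, -0.36 and -0.10 on the knockdown arrays, while the replication genes lie at 0.24 and 0.27 on the siRRM1 arrays and -0.03 and 0.12 on the siRRM2 arrays.

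The direct comparison of siRRM1 with siRRM2 asked whether the knockdowns differ from each other. PSRC1 was lower in siRRM1 than in siRRM2 (log2 -0.74, SE 0.08, adjusted p = 0.0334), with 5.37 and 5.34 in siRRM1, against 6.08 and 6.10 in siRRM2. Both siRRM1 signals lay under the filter level of 5.44, which PSRC1 passed on its mean over all 6 arrays. It was the only 1 of the 49 genes called there, where 0.0378% of all genes were called lower and 0.126% higher (0.164% in either direction), and the call was lost without any 1 of the 4 arrays compared. At an unadjusted p under 0.05, 3 of the 49 passed, all lower. Of all 7936 genes, 387 passed as lower, and 10% passed in either direction. Both siRRM1 arrays lay below both siRRM2 arrays for 5 genes and above them for 1, where 21.8% and 18.9% of all genes did so. CDC20 came next by size, with -0.33 (95% interval -0.57 to -0.08, adjusted p = 0.363) and no overlap of the arrays. The median over the 49 genes was -0.02, and the sign of that median changed to 0.09 without siRRM2 replicate 2 and to 0.03 without siRRM1 replicate 1, and it was -0.16 without siRRM2 replicate 1. A gene called in siRRM1 and not in siRRM2 is therefore not shown to differ between them. For DEPDC1 the interval of the difference ran from -0.56 to 0.21 and for CENPE from -0.51 to 0.11, so differences within those intervals are not excluded.

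Several genes had more than 1 probe set. Of the 78 probe sets, 74 passed the filter, and 15 of the 49 genes had several. A fit over all 13366 probe sets above the filter called 13 of the 74 lower and 0 higher in siRRM1, where 5.72% of all probe sets were lower and 6.39% higher. It called 1 lower and 0 higher in siRRM2, where 0.202% were lower and 1.11% higher, and 0 between the knockdowns, where 0.015% were lower and 0.0224% higher (3 of the 74 had an unadjusted limma p under 0.05). The probe set called in siRRM2 was that of CDC20, and 0 were called there without any 1 array. In siRRM1, 2 were called without siRRM1 replicate 2 or scramble replicate 1 and 5 without scramble replicate 2. In siRRM1 the differences of a gene's probe sets had the same sign in 10 of the 15 genes, and their median range was 0.13 on the log2 scale. A dimmer AURKA probe set was lower in siRRM1 (log2 -0.65, adjusted p = 0.0252), where the brightest, used above, had -0.54. Dimmer probe sets of HMMR (log2 -0.49, adjusted p = 0.0272) and CENPF (log2 -0.40, adjusted p = 0.0443) also passed in siRRM1 while the brighter one of each gene did not. AURKA, HMMR and CENPF are not among the 13 genes called in siRRM1 above. The 13 probe sets are therefore not those of the 13 genes, and some of these genes had no probe set called in this fit. For BUB1 the brightest probe set gave -0.47 and the others -0.58 and 0.15, so they differed in sign. The MKI67 probe sets ranged from -0.04 to 0.29 and the NUSAP1 pair gave 0.31 and 0.30.

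Other genes of the same machinery were read against the shares over all genes in siRRM1, 7.33% lower and 8.22% higher. Of 10 tested genes around cyclin B, cyclin A and CDK1, 2 fell and 0 rose in siRRM1 and 0 passed in siRRM2, with medians of -0.14 and -0.16. CCNB1, the mitotic cyclin B1, had log2 signals of 10.89 and 10.85 in siRRM1 and 10.85 and 11.14 in siRRM2, against 11.47 and 11.60 in scramble, and fell in siRRM1 (log2 -0.66, adjusted p = 0.0118). BORA, an activator of Aurora A and PLK1, had a log2 difference of -0.65 in siRRM1 and fell (adjusted p = 0.0136). PKMYT1, a kinase that holds CDK1 inactive, had 0.52 in siRRM1 and CKS2, a CDK1 subunit, -0.40, neither past the threshold (adjusted p = 0.0547 and 0.0606). CCNB2 had -0.38 in siRRM1, CCNA2 0.03 and CDK1 -0.00, and these also did not pass.

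Among 10 genes listed for the anaphase-promoting complex and its enzymes, 3 fell and 0 rose in siRRM1. They were CDC27 (-0.53), ANAPC10 (-0.64) and UBE2S (-0.61), while the median of the list was 0.01. In siRRM2, CDC27 fell (log2 -0.55, adjusted p = 0.0383), and the median was 0.03. Among 14 other kinesins and spindle proteins 2 fell and 0 rose in siRRM1, ARHGAP11A (-0.82) and KIF20B (-0.43), with a median of -0.10. Of 17 cohesin and condensin genes 1 fell in siRRM1, STAG1 (-0.40), which is 5.88% of the list and under the share over all genes. Of 22 other kinetochore and centromere genes 1 rose, CENPU (0.47), and 0 fell, also under the shares over all genes, and the median was 0.03. Both siRRM1 arrays lay above both scramble arrays for 6 of these 22 genes and below them for 4. Over all genes 28.4% lay above and 30.9% below in this way, so these counts do not exceed the shares over all genes.

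These calls rested on single arrays. All 9 named calls in siRRM1 were lost without siRRM1 replicate 2. Those of BORA, CDC27, ANAPC10, UBE2S, KIF20B, STAG1 and CENPU were lost without scramble replicate 1, those of UBE2S, KIF20B, STAG1 and CENPU without scramble replicate 2, and those of KIF20B, STAG1 and CENPU without siRRM1 replicate 1. UBE2S ranged from -0.83 to -0.39 over the alternatives. The CDC27 call in siRRM2 was lost without any 1 of the siRRM2 or scramble arrays, and it and the STAG1 call were also lost when probe sets were averaged. Without siRRM1 replicate 1, 4 genes of the cyclin list were called.

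Of 9 tested genes of the DREAM and MuvB complexes, which act on these promoters, E2F5 fell in siRRM1 (log2 -0.86, adjusted p = 0.00462), with 5.99 and 5.78 in siRRM1 and 6.40 and 6.33 in siRRM2, against 6.85 and 6.63 in scramble. MYBL2, which encodes B-MYB, had 0.45 in siRRM1 and did not pass (adjusted p = 0.0503). The E2F5 call held without any 1 array (adjusted p at most 0.0348), and 3 genes of this list were called without siRRM1 replicate 1. The median of the 9 genes was 0.19 in siRRM1 and 0.11 in siRRM2. Replication genes of the preceding phase lay on the other side of scramble in siRRM1: of 36, 7 rose and 0 fell, where 8.22% of all genes rose, and their median was 0.22 in siRRM1 and 0.06 in siRRM2. PCNA, the sliding clamp, rose by a log2 of 0.72 in siRRM1 (adjusted p = 0.00340). In place of 7, the replication genes called were 2 without scramble replicate 1 and 3 without scramble replicate 2. They were 4 without siRRM1 replicate 1 and 1 without siRRM1 replicate 2.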

How the data were processed

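The authors deposited log2 signals for 22277 probe sets on 6 arrays. RNA was labelled with biotin, per the labels' protocols. No source used here states how probes were summarised or arrays normalized, and log base 2 was inferred from the range of the values. No further scaling was applied. Gene names came from the annotation of the platform (19070 with 1 symbol, 1043 with several, 2164 with none; 5 probe sets that list a member beside other genes were left out), and 19058 identifiers matched RefSeq of GRCh38.p14. Each of 11963 genes was represented by its probe set with the highest mean, and 7936 reaching the 40th percentile (5.44) were tested.

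limma 3.58.1 in R 4.3.3 (lmFit, eBayes) was fitted over all 6 arrays with group as the factor (3 residual and 4.61 prior degrees of freedom), two-sided, with Benjamini-Hochberg adjustment over all genes; its code was tested on simulated data. Alternatives left out each array, used only the compared groups, blocked on replicate number, centred or quantile-normalized arrays, changed the filter, averaged probe sets, or used a variance trend. Full statistics are given for called genes and the other members by value; of other lists, up to 4 genes with the smallest p are named, and CCNB1, CCNB2, CCNA2 and CDK1 as context. The members, lists and tests were chosen with earlier results of these data known.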

Additional observations from a re-analysis of the deposited data

Results flagged for a closer look

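PSRC1 differed between the knockdowns by the test of the difference itself: its log2 difference of siRRM1 minus siRRM2 was -0.74 (limma adjusted p = 0.0334), with 5.37 and 5.34 in siRRM1 and 6.08 and 6.10 in siRRM2, against 6.50 and 6.57 in scramble. Both siRRM1 signals lay under the filter level of 5.44, so PSRC1 was tested only because its siRRM2 and scramble signals raised its mean above that level. The call was lost when any 1 of the siRRM1 or siRRM2 arrays was left out (adjusted p up to 0.308).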

How the results depend on the processing

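No gene of the set that was called changed sign under the 14 alternatives. Leaving out arrays in turn, the genes called over all 7936 ranged from 312 to 1234 in siRRM1 against scramble, 21 to 206 in siRRM2 against scramble and 2 to 16 in siRRM1 against siRRM2. Mitosis and kinetochore genes ranged from 3 to 14, 0 to 1 and 0 to 1, and their probe sets from 2 to 11, 0 to 0 and 0 to 0. Of the other alternatives, the replicate block (replicate number from the titles as a block) gave 1904, 622 and 153 genes, 21, 8 and 1 genes of the set, of which NUSAP1 was higher in siRRM1, and 24, 6 and 1 of their probe sets. The block kept all 13, 4 and 1 calls and added TTK, AURKA, UBE2C, PTTG1, DLGAP5, HMMR, CDCA8 and NUSAP1 in siRRM1 and TTK, AURKA, KIF14 and DLGAP5 in siRRM2. The labels do not say that a number marks a shared batch, and each comparison has only 2 pairs. The differences between replicates correlated across genes at r = 0.38 (siRRM1 and scramble), 0.36 (siRRM2 and scramble) and 0.21 (siRRM1 and siRRM2), a hint of pairing from the data and not from the design. With a variance trend 336 genes changed in siRRM2 and 42 between the knockdowns, and 20 and 3 of the probe sets in siRRM1 and siRRM2. In siRRM2, 2 genes of the set were called without a filter and 1 with only the 4 arrays compared, and 0 probe sets without a filter, with only those arrays, or with centred arrays. With a filter at the median 0 genes of the set differed between the knockdowns, since PSRC1 was not tested. With centred arrays the split over all genes in siRRM1 was 572 higher and 818 lower, against 652 and 582. The cause of these changes was not tested, beyond fewer genes or arrays in the fit. Signals near the filter, such as PSRC1 in siRRM1, limit what a fold can show.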
